A study of Homo sapiens with 8 samples.

Results

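The aldehyde dehydrogenases described here are 10 human genes, ALDH1A1, ALDH1A2, ALDH1A3, ALDH1B1, ALDH2, ALDH3A1, ALDH3A2, ALDH3B1, ALDH7A1 and ALDH18A1. Each was read from the probe set that carried its symbol alone, and ALDH1A3, with more than 1 such probe set, from the brightest by mean. All 10 were found among the 18417 genes with a probe set of their own. The data are 8 arrays of the Affymetrix Human Gene 1.0 ST type, in 4 groups of 2. Each was prepared from total RNA, with biotin as the label. The groups were A2780 cells given temsirolimus for 48 h, A2780 cells given temsirolimus for 24 h, untreated A2780CP20 cells and untreated A2780 cells. A2780 is an established human ovarian carcinoma line, A2780CP20 is a subline of it known for resistance to cisplatin, and temsirolimus, an ester of rapamycin, is an inhibitor of mTORC1. All cells grew in RPMI with fetal bovine serum. The drug stock was in DMSO, the sources used here give no dose, and the untreated arrays carry no statement of vehicle. The labels do not state whether the 2 replicates of a group came from separate cultures. The p-values therefore cover the spread between these samples alone, and that spread may be technical.

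Aldehyde dehydrogenases oxidize reactive aldehydes to carboxylic acids with NAD or NADP as cofactor. Members of the ALDH1A group make retinoic acid from retinal, the mitochondrial enzymes clear acetaldehyde and other short aldehydes, and further members act on fatty aldehydes, lysine breakdown and proline synthesis. High aldehyde dehydrogenase activity, often attributed to ALDH1A1, is widely used to mark stem-like and drug-tolerant cells in ovarian carcinoma.

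The arrays labelled 24 h stood apart from the other 6. Across genes they correlated with arrays of other groups at r = 0.950 to 0.952, against 0.979 to 0.996 between arrays of the 3 remaining groups and 0.991 to 0.997 within a group. Genes within an array are not independent, and the values are a description. Whether these 2 arrays hold the cells and treatment that their labels state was not tested, and the label, the treatment and the identity of the cells cannot be told apart from these values. In every comparison with them, "rose" and "fell" therefore describe the arrays labelled 24 h and are not shown to be an effect of temsirolimus. Every such result rests on those 2 arrays, and no value for it can be had without them. The comparisons of A2780CP20 and of 48 h with untreated A2780 are therefore given with and without them wherever a call changed. Array medians lay between 6.66 and 6.72 on the log2 scale. Values below are log2 intensities. Changes are differences between group means with the standard error that limma estimated (2 arrays in each group), and adjusted p is Benjamini-Hochberg over all genes.

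Markers of the labelled cell type and of other cell types were read against 5.03, the smallest lower quartile among the arrays, since background itself is not known. No group mean of 10 markers of ovarian carcinoma epithelium fell under it. Apart from KRT18 and EPCAM, their group means ran between 5.16 (ESR1 on the arrays labelled 24 h) and 6.92 (PAX8 in untreated A2780). KRT18 averaged 7.27 at 48 h, 10.52 on the arrays labelled 24 h, 7.24 in A2780CP20 and 7.58 in untreated A2780, but it has many pseudogenes and its signal is uncertain. EPCAM averaged 5.52 at 48 h, 7.74 on the arrays labelled 24 h, 5.30 in A2780CP20 and 5.57 in untreated A2780.

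The fibroblast markers COL1A2, LUM, COL3A1 and DCN had high values in the groups other than 24 h, but the rest of the list was mixed. Group means of PDGFRA and PDGFRB lay below every array median in all 4 groups. Those of THY1 and COL1A1 lay above every array median in all 4 groups, 24 h included. FAP lay above the medians only at 48 h and in untreated A2780. COL1A2 averaged 11.98 at 48 h, 6.59 on the arrays labelled 24 h, 11.71 in A2780CP20 and 11.98 in untreated A2780. LUM averaged 11.50 at 48 h, 5.91 on the arrays labelled 24 h, 10.45 in A2780CP20 and 11.31 in untreated A2780. COL3A1 averaged 8.53 on the arrays labelled 24 h and 12.00 in untreated A2780, and DCN 7.83 and 11.62 in the same groups. Of 4 leukocyte markers, PTPRC and LYZ averaged under 5.03 in all 4 groups, whereas CD3E (5.55 to 5.92) and CD14 (5.60 to 6.03) averaged above it in all 4.

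ALDH1A1, which encodes the cytosolic retinal dehydrogenase, was high only on the arrays labelled 24 h. Its values were 5.44 and 5.37 on the 48 h arrays, 8.50 and 8.33 on the arrays labelled 24 h, 5.40 and 5.19 in A2780CP20, and 5.28 and 5.63 in untreated A2780. Both arrays labelled 24 h lay above all 6 others, whose groups overlapped. Those 6 values were above the lower quartiles of the arrays (5.03 to 5.13) by little, so the size of the difference depends on signal near an unknown background. Against untreated A2780 the difference was 2.96 ± 0.14 (7.78-fold higher, limma adjusted p = 8.86e-07), and against A2780CP20 it was 3.12 ± 0.14 (8.69-fold higher, limma adjusted p = 7.4e-07). These comparisons share the arrays labelled 24 h. The change against untreated A2780 ranked 172 of 18417 by size. In bulk RNA, fewer cells with a transcript and less transcript per cell cannot be told apart.

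The other retinal dehydrogenase genes did not move with it. ALDH1A2 measured 5.90 and 5.79 at 48 h, 5.78 and 5.94 on the arrays labelled 24 h, 6.16 and 5.90 in A2780CP20, and 5.90 and 5.81 in untreated A2780. ALDH1A3 measured 6.57 and 6.58 at 48 h, 6.68 and 6.44 on the arrays labelled 24 h, 6.79 and 6.48 in A2780CP20, and 6.61 and 6.51 in untreated A2780. The groups overlapped for both genes. On the arrays labelled 24 h ALDH1A2 differed from untreated A2780 by 0.01 (95% interval -0.26 to 0.27, limma adjusted p = 0.98) and ALDH1A3 by 0.00 (95% interval -0.29 to 0.29, limma adjusted p = 1). A second, dimmer ALDH1A3 probe set averaged 6.26 on the arrays labelled 24 h and 6.36 in untreated A2780.

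**Figure D1:**
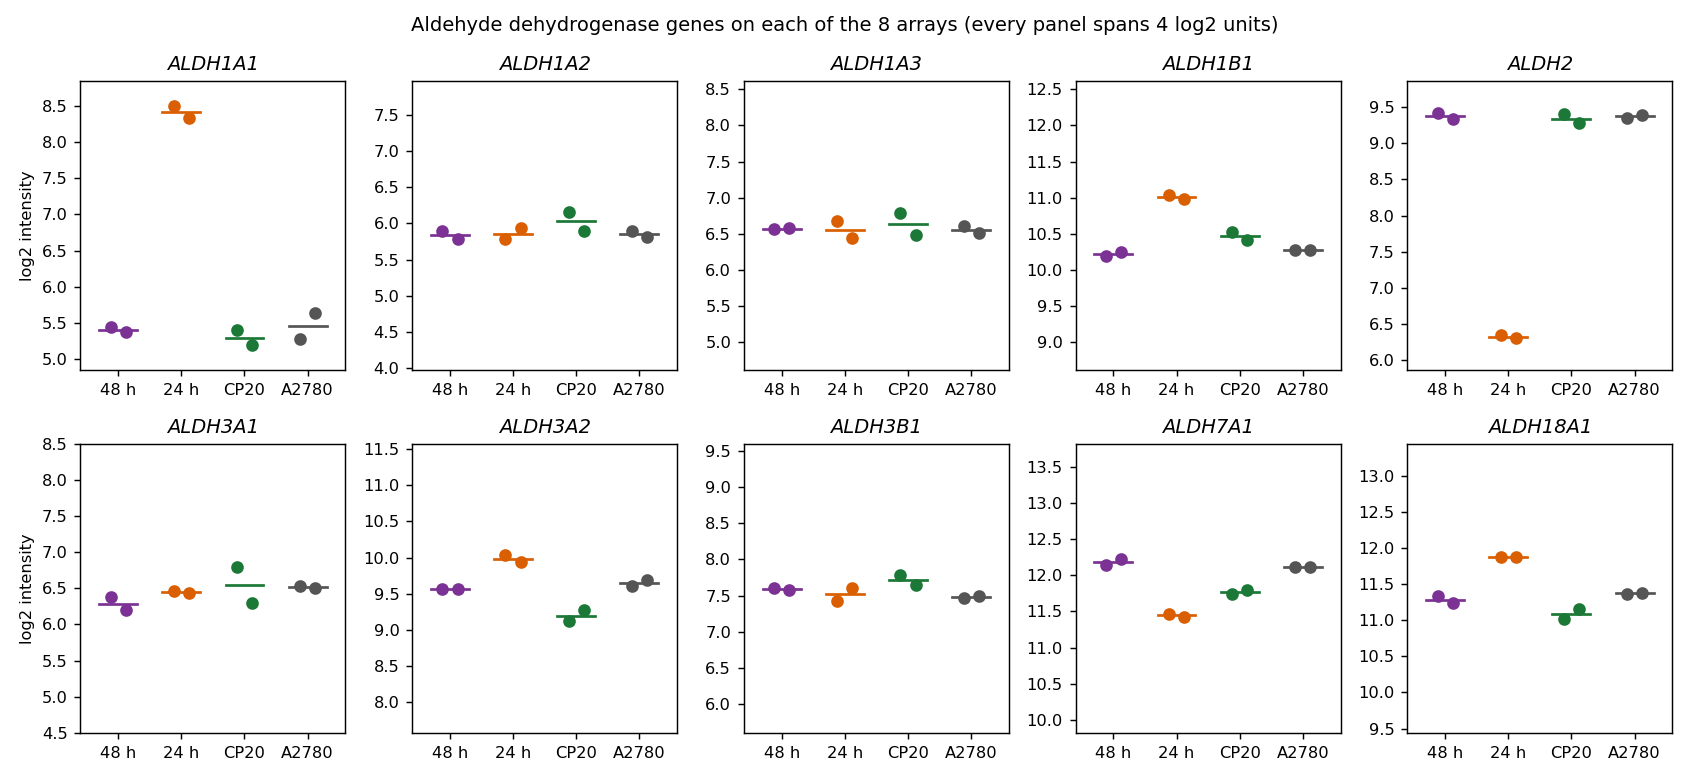
Log2 intensity (y axis) of the 10 aldehyde dehydrogenase genes on each array, with 1 panel per gene and the groups on the x axis (temsirolimus 48 h, temsirolimus 24 h, untreated A2780CP20, untreated A2780). Points are arrays, bars are means of 2 arrays, and every panel spans 4 log2 units. ALDH1A1 is at 8.50 and 8.33 on the arrays labelled 24 h with all others at or below 5.63, and ALDH2 is at 6.35 and 6.30 there with all others at or above 9.28.

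The promoter windows of the ALDH1A genes are shown because only ALDH1A1 of the 3 changed. They run from 250 bases before to 50 bases after the RefSeq gene start, in assembly GRCh38.p14, and are written 5′ to 3′ on the strand of the gene. Capitals mark the motifs found.
ALDH1A1 promoter, chr9:72953004-72953303 (- strand): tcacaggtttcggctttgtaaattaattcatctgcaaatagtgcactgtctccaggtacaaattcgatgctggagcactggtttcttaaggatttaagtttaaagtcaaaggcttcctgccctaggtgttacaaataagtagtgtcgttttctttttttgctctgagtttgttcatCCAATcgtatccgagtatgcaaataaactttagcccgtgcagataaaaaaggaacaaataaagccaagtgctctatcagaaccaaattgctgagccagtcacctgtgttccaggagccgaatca
ALDH1A2 promoter, chr15:58065662-58065961 (- strand): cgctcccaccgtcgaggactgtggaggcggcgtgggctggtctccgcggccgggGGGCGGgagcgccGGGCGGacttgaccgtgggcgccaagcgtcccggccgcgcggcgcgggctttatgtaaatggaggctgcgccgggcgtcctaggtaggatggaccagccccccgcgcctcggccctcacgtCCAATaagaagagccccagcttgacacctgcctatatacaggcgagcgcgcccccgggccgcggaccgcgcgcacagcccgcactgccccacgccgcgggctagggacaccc
ALDH1A3 promoter, chr15:100879581-100879880 (+ strand): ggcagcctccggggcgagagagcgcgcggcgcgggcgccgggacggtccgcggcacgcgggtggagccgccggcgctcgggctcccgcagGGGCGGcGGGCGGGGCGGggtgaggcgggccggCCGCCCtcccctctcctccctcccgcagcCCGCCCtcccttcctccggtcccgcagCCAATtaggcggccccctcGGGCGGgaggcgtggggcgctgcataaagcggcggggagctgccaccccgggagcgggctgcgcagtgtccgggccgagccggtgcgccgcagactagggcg
Of the 10 genes, 8 had an entry, with 11 windows in all, and the ALDH1A2 window shown is the CpG-rich one of its 2. Motifs searched on both strands were the TATA box (TATAAA), the CCAAT box (CCAAT), the GC box (GGGCGG), the AP-1 motif (TGANTCA) and the core of the antioxidant response element (TGACNNNGC). A CCAAT box began at position -74 in ALDH1A1, -62 in ALDH1A2 and -71 in ALDH1A3, counted from the start. CCAAT occurs in 34.6% of 35116 windows of the same length in the table. GC boxes were found in ALDH1A2 (2) and ALDH1A3 (6, a pair of them overlapping) but not in ALDH1A1, and 45% of all windows hold one. The windows shown held 7 CpG in ALDH1A1, 41 in ALDH1A2 and 46 in ALDH1A3, against a median of 14 over all windows. The other ALDH1A2 window held 1 CpG and neither a CCAAT box nor a GC box. The TATA box, the AP-1 motif and the antioxidant response core occur in 11.5%, 7.71% and 13.3% of all windows, and none was found in the 11 windows of these genes. These matches describe letters in the windows, and no binding was measured. Their relation to the changes in expression was not tested.

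ALDH2, which encodes the main mitochondrial acetaldehyde dehydrogenase, went the opposite way to ALDH1A1. It measured 9.42 and 9.34 at 48 h, 6.35 and 6.30 on the arrays labelled 24 h, 9.40 and 9.28 in A2780CP20, and 9.35 and 9.39 in untreated A2780. Both arrays labelled 24 h lay below the other 6, which ran between 9.28 and 9.42. ALDH2 fell by 3.05 ± 0.09 on the log2 scale against untreated A2780 (8.25-fold lower, limma adjusted p = 7.24e-08). Against A2780CP20 it fell by 3.02 ± 0.09 (8.08-fold lower, limma adjusted p = 8.83e-08). By size its change against untreated A2780 ranked 162 of 18417.

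ALDH1B1, a mitochondrial relative that also oxidizes acetaldehyde, was higher where ALDH2 was lower. Its values were 10.19 and 10.25 at 48 h, 11.04 and 10.99 on the arrays labelled 24 h, 10.52 and 10.41 in A2780CP20, and 10.28 and 10.28 in untreated A2780. Both arrays labelled 24 h lay above all others, by 0.74 ± 0.09 against untreated A2780 (1.66-fold, limma adjusted p = 0.000346) and by 0.55 ± 0.09 against A2780CP20 (1.46-fold, limma adjusted p = 0.00173). A2780CP20 lay slightly above untreated A2780 without overlap, at 0.19 ± 0.09, which did not pass (limma adjusted p = 0.187).

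ALDH18A1 encodes the enzyme that opens proline synthesis from glutamate. It measured 11.33 and 11.24 at 48 h, 11.87 and 11.87 on the arrays labelled 24 h, 11.01 and 11.15 in A2780CP20, and 11.36 and 11.38 in untreated A2780. The arrays labelled 24 h were highest, by 0.50 ± 0.09 against untreated A2780 (1.41-fold, limma adjusted p = 0.00357) and by 0.79 ± 0.09 against A2780CP20 (1.73-fold, limma adjusted p = 0.000285). A2780CP20 was lowest, but its difference of -0.29 ± 0.09 from untreated A2780 did not pass (limma adjusted p = 0.0618).

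ALDH7A1, which encodes an enzyme of lysine breakdown also called antiquitin, was lower on the arrays labelled 24 h. It measured 12.14 and 12.22 at 48 h, 11.47 and 11.42 on the arrays labelled 24 h, 11.74 and 11.79 in A2780CP20, and 12.11 and 12.11 in untreated A2780. The 4 groups did not overlap, with 48 h highest and 24 h lowest. It fell by 0.67 ± 0.09 on the log2 scale on the arrays labelled 24 h against untreated A2780 (1.59-fold lower, limma adjusted p = 0.00053). Against A2780CP20 the difference was -0.32 ± 0.09 (limma adjusted p = 0.0211). That last call ended without replicate 1 (limma adjusted p = 0.0815) or replicate 2 (0.129) of the arrays labelled 24 h, and with only the compared groups in the fit (0.0746).

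ALDH3A2 encodes the fatty aldehyde dehydrogenase, whose loss causes Sjögren-Larsson syndrome. Its values were 9.57 and 9.56 at 48 h, 10.03 and 9.94 on the arrays labelled 24 h, 9.12 and 9.27 in A2780CP20, and 9.61 and 9.69 in untreated A2780. No groups overlapped, and the arrays labelled 24 h and those of A2780CP20 lay on opposite sides of untreated A2780. The arrays labelled 24 h exceeded A2780CP20 by 0.79 ± 0.09 (1.73-fold, limma adjusted p = 0.00034). Against untreated A2780 the rise of 0.34 ± 0.09 (limma adjusted p = 0.0277) was called in 9 of 15 alternatives, whose limma adjusted p ran between 0.0115 and 0.169, and it was lost on leaving out any array of the 24 h, 48 h or untreated A2780 groups.

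ALDH3A1 and ALDH3B1, which encode enzymes that act on aromatic and lipid-derived aldehydes, passed no comparison. ALDH3A1 measured 6.38 and 6.20 at 48 h, 6.46 and 6.44 on the arrays labelled 24 h, 6.80 and 6.30 in A2780CP20, and 6.53 and 6.50 in untreated A2780. The 2 A2780CP20 arrays differed by 0.50, the widest gap between replicates of any of the 10 genes, and lay on either side of most other values. ALDH3B1 lay between 7.42 and 7.78 on all 8 arrays. ALDH3B1 has a close paralog, ALDH3B2, and signal shared between their probe sets was not tested.

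Counted together, 4 of the 10 genes rose and 2 fell on the arrays labelled 24 h against untreated A2780. Over all genes 30.1% were called in that comparison, 14.9% higher and 15.3% lower. The arrays did not overlap for 7 of the 10, where 66% of all genes did not overlap. The median change of the 10 genes was 0.02, beside 0.01 over all genes. Of the 6 called genes, 5 stayed called in every one of the 15 alternatives, ALDH3A2 being the exception. ALDH1A1 and ALDH2 alone changed at least 2-fold. Against A2780CP20, 4 rose and 2 fell on the arrays labelled 24 h, where 33.7% of all genes were called, 17.8% higher and 15.9% lower. There 7 of the 10 did not overlap, beside 62.7% of all genes, and the median change was -0.09 beside -0.03 over all genes.

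**Figure D2:**
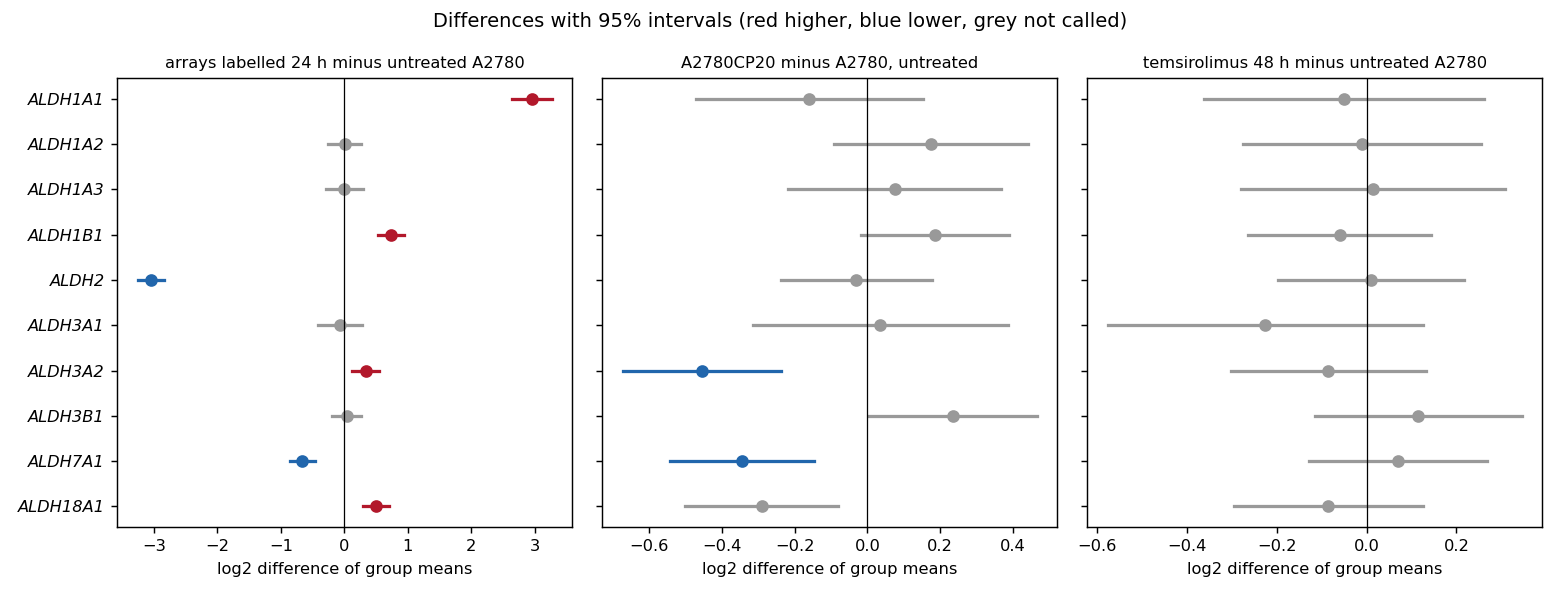
Log2 differences of group means (x axis, points) with 95% intervals of the limma fit (lines) for the 10 genes, for the arrays labelled 24 h, for A2780CP20 and for 48 h, each minus untreated A2780. Red marks genes called higher, blue genes called lower and grey genes not called, and the x axes differ in range. At 24 h ALDH1A1 is at 2.96 and ALDH2 at -3.05, while no difference passes 0.46 in size for A2780CP20 or 0.23 at 48 h.

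Cell type markers were also compared on the arrays labelled 24 h. There 30.1% of all genes were called against untreated A2780, 14.9% higher and 15.3% lower. Of 9 fibroblast markers, 8 were lower there than in untreated A2780, by up to 5.40 on the log2 scale (LUM), and none was higher. COL1A1 was the one not called. The summed linear intensity of the 9 was 1747 to 1818, against 15190 to 15680 in untreated A2780. FAP lay below 5.03 on both arrays labelled 24 h. Of 10 markers of ovarian carcinoma epithelium 2 were higher (EPCAM and KRT18) and 1 lower (ESR1), with summed linear intensities of 2203 to 2306 at 24 h, against 832 to 880.5 in untreated A2780. That difference lay in KRT18 and EPCAM: without them, a choice made after their values were seen, the sums of the other 8 were 552 to 603 at 24 h, against 585 to 649 in untreated A2780. The median change of the 10 markers was -0.04, and KRT7, KRT8, KRT19, CDH1, PAX8, WT1 and MUC16 were not called. Of 4 leukocyte markers 1 was called higher, PTPRC at 0.52, a gene below 5.03 on every array of both groups. None of 5 endothelial markers was called. The part of these differences in the aldehyde dehydrogenase results was not tested.

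**Figure D3:**
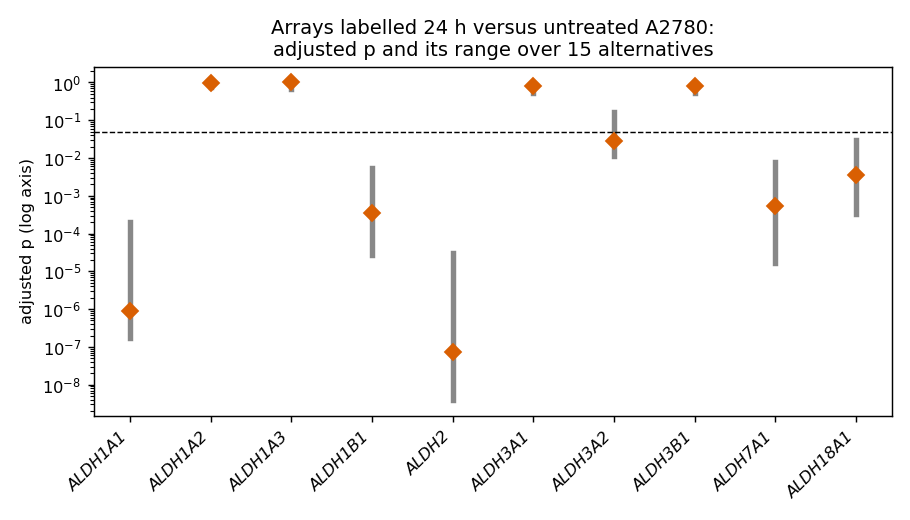
Adjusted p (y axis, log axis) of each of the 10 genes for the arrays labelled 24 h versus untreated A2780. Diamonds are the reported limma fit, grey lines the range over 15 alternatives, and the dashed line the threshold of 0.05. The line of ALDH3A2 crosses the threshold, reaching 0.169, whereas those of ALDH1A1, ALDH1B1, ALDH2, ALDH7A1 and ALDH18A1 stay below it.

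The comparison of A2780CP20 with A2780, both untreated, asks how the subline differs from its parent. Of the 10 genes 2 fell and none rose, where 18.4% of all genes were called, 6.37% higher and 12% lower. The arrays did not overlap for 5 of the 10, beside 55.3% of all genes. ALDH3A2 fell by 0.46 ± 0.09 on the log2 scale (1.37-fold lower, limma adjusted p = 0.0142) and ALDH7A1 by 0.35 ± 0.09 (1.27-fold lower, limma adjusted p = 0.0276). ALDH1A1 measured -0.16 ± 0.14 (95% interval -0.47 to 0.15, limma adjusted p = 0.454) and ALDH2 -0.03 ± 0.09 (95% interval -0.24 to 0.18, limma adjusted p = 0.85). The median change of the 10 genes was 0.00, beside 0.03 over all genes.

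Both calls depended on the arrays in the fit. The ALDH3A2 call ended without untreated A2780 replicate 1 (limma adjusted p = 0.0576) or replicate 2 (0.0961) and with only these groups fitted (0.0771), and it held without the arrays labelled 24 h. The ALDH7A1 call was kept in 7 of 16 alternatives (limma adjusted p between 0.00345 and 0.125) and ended without the arrays labelled 24 h (0.056), with only the groups compared (0.118) and on leaving out any single array except A2780CP20 replicate 2.

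The comparison of 48 h with untreated A2780 sets cells given temsirolimus for the longer time beside untreated cells. Vehicle and culture time of the untreated arrays are not stated, so they cannot be told apart from the drug. None of the 10 genes was called by limma, and none had an unadjusted p under 0.05, where 0.179% of all genes were called, 0.163% higher and 0.0163% lower. The arrays did not overlap for 6 of the 10, beside 46.8% of all genes. The differences ran between -0.23 for ALDH3A1 and 0.12 for ALDH3B1. ALDH1A1 differed by -0.05 ± 0.14 (95% interval -0.36 to 0.26, limma adjusted p = 0.927), ALDH2 by 0.01 ± 0.09 (95% interval -0.20 to 0.22, limma adjusted p = 0.984) and ALDH1B1 by -0.06 ± 0.09 (95% interval -0.27 to 0.14, limma adjusted p = 0.853). Changes of 2-fold in measured intensity lay outside the 95% interval of each of these 3 genes. For ALDH1A1 both groups lay near the lower quartiles of the arrays, where background is unknown, so its interval does not bound the change in transcript. No gene of the 10 was called at 48 h without the arrays labelled 24 h either.

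Set against the arrays labelled 24 h, those of 48 h differed in 6 of the 10 genes, 2 higher and 4 lower, where 31% of all genes were called, 15.2% higher and 15.7% lower. The arrays did not overlap for 7 of the 10, beside 69.3% of all genes. ALDH2 was higher at 48 h by 3.06 ± 0.09 (limma adjusted p = 7.12e-08) and ALDH7A1 by 0.74 ± 0.09 (limma adjusted p = 0.000284). ALDH1A1 was lower at 48 h, with a difference of -3.01 ± 0.14 (limma adjusted p = 7.93e-07). ALDH1B1 (-0.80 ± 0.09), ALDH18A1 (-0.59 ± 0.09) and ALDH3A2 (-0.42 ± 0.09) were also lower. The median change of the 10 genes was -0.09, beside -0.06 over all genes.

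The order of the group means showed the same split. For ALDH1A1 the arrays labelled 24 h came first, and 48 h (5.41), A2780CP20 (5.30) and untreated A2780 (5.46), with untreated A2780 next in order and A2780CP20 last, did not differ from their neighbours beyond their spread. ALDH2 had 48 h (9.38), A2780CP20 (9.34) and untreated A2780 (9.37) together, and the arrays labelled 24 h (6.33) last. In ALDH1B1, only the step between 24 h and A2780CP20 passed the test. For ALDH18A1 only the step between 24 h and untreated A2780 passed. ALDH7A1 showed no difference between 48 h and untreated A2780, then passed at both further steps, to A2780CP20 and to 24 h. ALDH3A2 ran 24 h, untreated A2780, 48 h and A2780CP20, and its middle step did not pass. No neighbouring groups differed for ALDH1A2, ALDH1A3, ALDH3A1 or ALDH3B1.

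Genes with the pattern most like ALDH1A1 were taken as those with the smallest root mean square difference from it over the 8 arrays, each gene centred on its own mean. They were ASRGL1 (0.114), PLAAT3 (0.116), MYOF (0.123), TOM1L2 (0.152) and FILIP1 (0.167), on chromosomes 11, 11, 10, 17 and 6. All 5 were high on the arrays labelled 24 h, for instance ASRGL1 at 9.92 against 7.19 in untreated A2780. For ALDH2 the nearest were CD99 (0.116), NES (0.128) and DLX1 (0.136), all low there, with NES, which encodes the intermediate filament nestin, at 7.21 against 10.04 in untreated A2780. ALDH1B1 lay closest to FMNL1 (0.045), MTG2 (0.0484) and KEAP1 (0.05), the last of which encodes the adaptor that marks NRF2 for degradation. ALDH18A1 lay closest to UBR1 (0.0472), PEX3 (0.0475) and FAIM (0.0576), ALDH7A1 to PCID2 (0.0494), DMAC1 (0.051) and ITGB1 (0.0521), and ALDH3A2 to RNF14 (0.0472), SYTL2 (0.05) and FEM1C (0.0504). These values describe 8 arrays that all the genes share, and most of the pattern is the contrast of the arrays labelled 24 h with the rest.

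Of the 9 other aldehyde dehydrogenase genes measured, 1 rose and 2 fell on the arrays labelled 24 h against untreated A2780, where 30.1% of all genes were called, and their median change was -0.14 beside 0.01 over all genes. ALDH9A1, which encodes an enzyme of carnitine synthesis, measured 10.95 and 10.83 there against 10.18 and 10.39 in untreated A2780, a rise of 0.61 ± 0.12 (limma adjusted p = 0.00447). ALDH6A1, which encodes an enzyme of valine breakdown, measured 8.74 and 8.55 against 9.41 and 9.34 and was lower at -0.73 ± 0.13 (limma adjusted p = 0.00278). It has a second, dimmer probe set, which averaged 4.59 on the arrays labelled 24 h, 4.78 in A2780CP20 and 4.71 in untreated A2780, and the mean of both probe sets differed at 24 h by -0.43 (limma adjusted p = 0.00817). ALDH4A1, which encodes the proline breakdown enzyme that works on the product of ALDH18A1, measured 6.88 and 7.07 against 7.69 and 7.51 and was lower at -0.63 ± 0.11 (limma adjusted p = 0.00259). None of the 9 changed 2-fold there. The folate enzyme genes ALDH1L1 (-0.23 ± 0.13) and ALDH1L2 (-0.10 ± 0.21), together with ALDH3B2 (-0.14 ± 0.16), ALDH5A1 (0.23 ± 0.09), ALDH8A1 (0.20 ± 0.10) and ALDH16A1 (-0.19 ± 0.10), did not pass.

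In A2780CP20 against untreated A2780, 2 of these 9 genes fell and none rose, where 18.4% of all genes were called and 12% were lower, with a median change of 0.03, equal to that over all genes. ALDH6A1 fell by 0.76 ± 0.13 on the log2 scale (limma adjusted p = 0.00650), and its call was lost in 1 of 16 alternatives, without untreated A2780 replicate 1 (0.0507). With the mean of both ALDH6A1 probe sets the difference was -0.34 (limma adjusted p = 0.0364). ALDH5A1, which encodes the succinic semialdehyde dehydrogenase of GABA breakdown, fell by 0.38 ± 0.09 (limma adjusted p = 0.0276) and kept its call in 9 of 16 alternatives. That call was lost without either untreated A2780 array (0.0749 and 0.160), A2780CP20 replicate 1 (0.0674), either or both arrays labelled 24 h (0.0546) and with only the groups compared (0.111). ALDH1L2 measured 7.66 and 8.44 on the A2780CP20 arrays, against 7.96 and 8.01 in untreated A2780, so its 2 A2780CP20 arrays lay on opposite sides. At 48 h none of the 9 was called by limma, and 1 was under 0.05 before adjustment (ALDH3B2, -0.43 ± 0.16, limma adjusted p = 0.379).

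**Figure D4:**
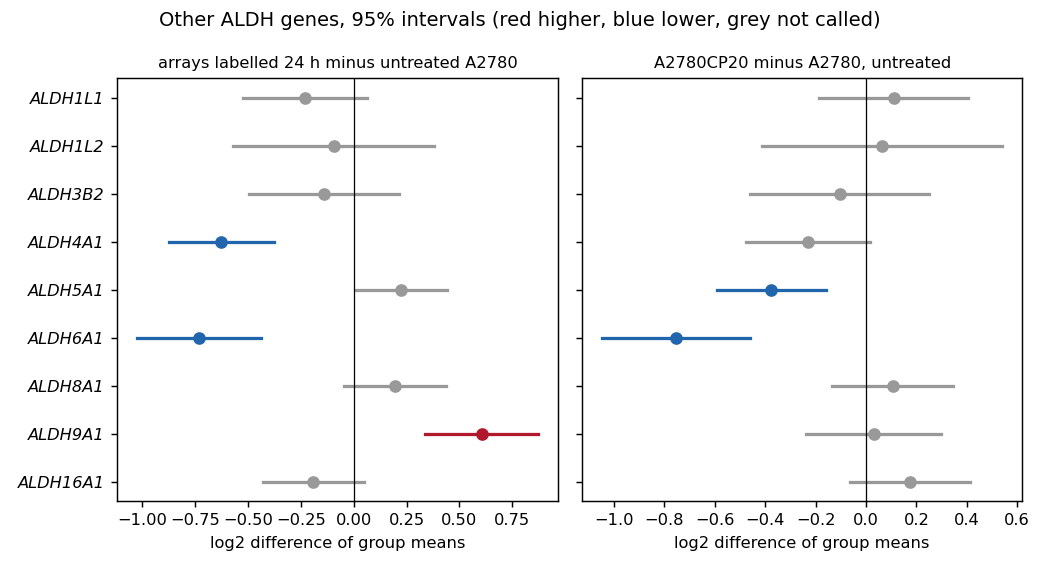
Log2 differences of group means (x axis, points) with 95% intervals of the limma fit (lines) for the 9 other aldehyde dehydrogenase genes, for the arrays labelled 24 h and for A2780CP20, each minus untreated A2780. Red marks genes called higher, blue genes called lower and grey genes not called, and the x axes differ in range. ALDH6A1 is lower in both panels, at -0.73 and -0.76, and ALDH9A1 is higher at 24 h at 0.61.

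Genes that surround the retinal dehydrogenases were examined from a list of retinoid handling and receptors, of which 16 of 21 were measured. Against untreated A2780, 2 rose and 4 fell on the arrays labelled 24 h, where 30.1% of all genes were called, with a median change of 0.11 beside 0.01 over all genes. RDH10, which encodes the enzyme that makes retinal from retinol one step before ALDH1A1, measured 11.65 and 11.71 on the arrays labelled 24 h, against 9.43 and 9.40 in untreated A2780 (2.27 ± 0.08, limma adjusted p = 2.79e-07). CRABP2, which encodes a carrier of retinoic acid to its nuclear receptors, measured 8.73 and 8.89 against 6.02 and 6.01 (2.80 ± 0.12, limma adjusted p = 5.13e-07). The receptor gene RARG measured 7.70 and 7.90 against 8.92 and 8.86 (-1.09 ± 0.10, limma adjusted p = 6.01e-05). STRA6, which encodes the receptor for retinol carried in blood, was lower at -0.52 ± 0.14 (limma adjusted p = 0.0256), a call kept in 12 of 15 alternatives and lost without either array labelled 24 h (0.0870 and 0.116) or untreated A2780 replicate 1 (0.166). RXRA (-0.40 ± 0.11) and RXRB (-0.42), the other 2 that fell, encode retinoid X receptors and are named because the count is small, after their values were seen. The retinoic acid hydroxylase genes CYP26A1, CYP26B1 and CYP26C1 and the receptor gene RARB, also named outside the rule for related lists, were not called. RARB averaged 4.90 on the arrays labelled 24 h and 4.77 in untreated A2780, under 5.03, where signal over background is not known.

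**Figure D5:**
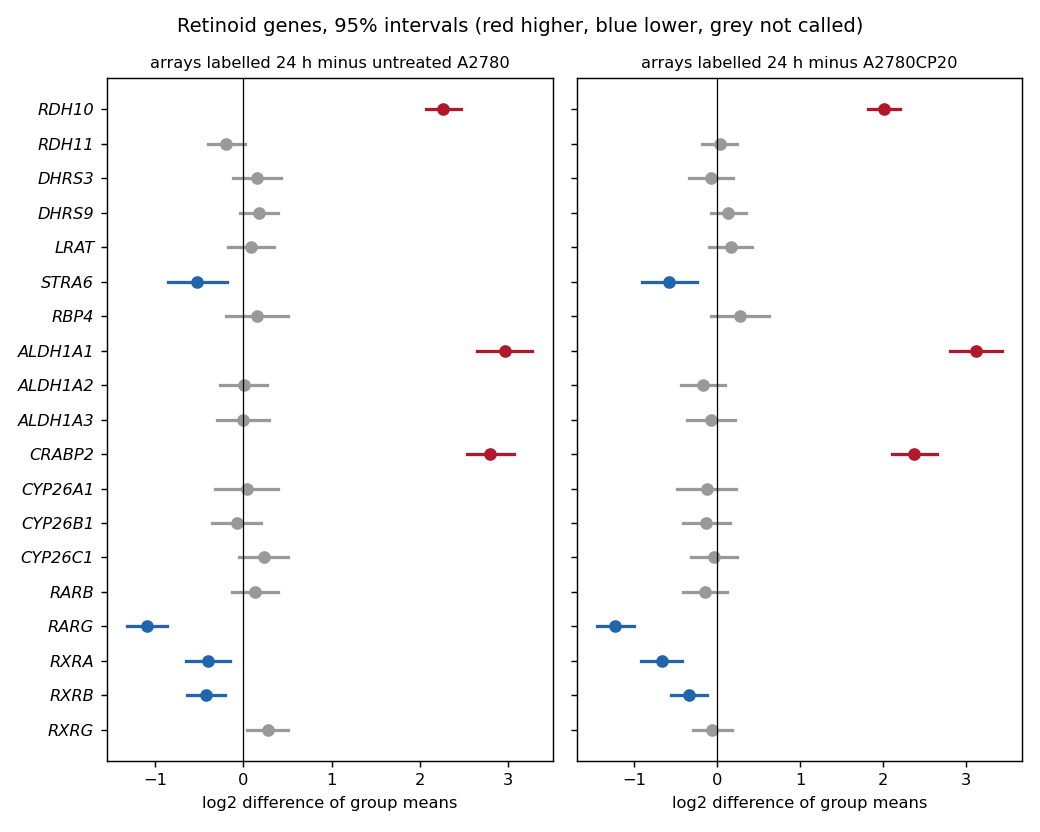
Log2 differences of group means (x axis, points) with 95% intervals of the limma fit (lines) for 16 genes of retinoid handling and the 3 ALDH1A genes, for the arrays labelled 24 h minus untreated A2780 and minus A2780CP20. Red marks genes called higher, blue genes called lower and grey genes not called. RDH10, ALDH1A1 and CRABP2 lie at 2.27, 2.96 and 2.80 against untreated A2780, and RARG at -1.09.

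In the same list CRABP2 was the only gene called in A2780CP20 against untreated A2780, where 1 of 16 rose and none fell, beside 18.4% of all genes called. It measured 6.43 and 6.44 there against 6.02 and 6.01 (0.42 ± 0.12, limma adjusted p = 0.0397), and the call was kept in 8 of 16 alternatives. It was lost on leaving out any 1 array of A2780CP20, untreated A2780 or 24 h. It was also lost without both arrays labelled 24 h (limma adjusted p = 0.0583) and with only the groups compared (0.0770). At 48 h none of the 16 was called.

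Other enzymes that act on aldehydes and alcohols were measured for 15 of 17 listed genes. Of these, 1 rose and 4 fell on the arrays labelled 24 h against untreated A2780, where 30.1% of all genes were called, with a median change of -0.09. AKR1C3, which encodes an aldo-keto reductase of steroid and prostaglandin metabolism, measured 4.72 and 5.35 on the arrays labelled 24 h, against 9.90 and 9.61 in untreated A2780 (limma adjusted p = 4.27e-07). Its mean on the arrays labelled 24 h, 5.04, lay under the lower quartiles of those arrays (5.12 and 5.11), so no exact size is given for the difference. AKR1C1, at 5.12 and 5.40 against 8.36 and 8.29, and AKR1C2, at 5.10 and 5.17 against 7.96 and 7.59, were also lower and near those quartiles on the arrays labelled 24 h. AKR1C1 differed by -3.07 ± 0.13 in its brightest probe set but by -1.22 in the mean of its probe sets (limma adjusted p = 1.83e-05). The AKR1C genes are near-identical in sequence, so the probe sets may share signal and the split between them is uncertain. CBR1, which encodes a carbonyl reductase, measured 8.63 and 9.01 against 6.24 and 5.92 (2.74 ± 0.18, limma adjusted p = 8.32e-06). In A2780CP20 2 of the 15 fell, beside 18.4% of all genes called. They were AKR1C2 (-0.55 ± 0.14) and ADH5 (-0.46 ± 0.09), which encodes the glutathione-dependent formaldehyde dehydrogenase. The AKR1C2 call was kept in 9 of 16 alternatives, being lost without untreated A2780 replicate 1 (-0.37, limma adjusted p = 0.168), either A2780CP20 array or either or both arrays labelled 24 h, and with only the groups compared (0.0857). The ADH5 call was kept in 14 of 16, being lost without untreated A2780 replicate 2 (limma adjusted p = 0.0979) and with only the groups compared (0.0760).

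Around ALDH18A1, 8 of 10 listed genes of proline and glutamate semialdehyde metabolism were measured. Of these, 1 rose and 1 fell on the arrays labelled 24 h against untreated A2780, beside 30.1% of all genes called, with a median change of 0.01. ARG2, which encodes the mitochondrial arginase, measured 9.09 and 8.92 against 6.43 and 6.51 (2.54 ± 0.11, limma adjusted p = 6.66e-07), and ALDH4A1 was the gene that fell. PYCR1, which encodes the last enzyme of proline synthesis, rose in A2780CP20 by 0.44 ± 0.10 (limma adjusted p = 0.0182), the only call of 8 there, beside 18.4% of all genes. It was kept in 13 of 16 alternatives and lost without untreated A2780 replicate 1 (0.0726) or replicate 2 (0.111) and with only the groups compared (0.0801).

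Around ALDH7A1, all 7 listed genes of lysine and choline oxidation were measured, of which 3 rose and 2 fell on the arrays labelled 24 h against untreated A2780, where 14.9% of all genes rose and 15.3% fell. Their median change was -0.01 beside 0.01 over all genes. DHTKD1, which encodes a dehydrogenase late in lysine breakdown, was lower at -1.47 ± 0.10 (limma adjusted p = 1.02e-05). AASS, which encodes the enzyme that opens lysine breakdown, was lower at -0.84 ± 0.10 (limma adjusted p = 0.000277), and in A2780CP20 it fell by 0.72 ± 0.10 on the log2 scale (limma adjusted p = 0.00313). CHDH, which encodes choline dehydrogenase, was higher on the arrays labelled 24 h at 0.97 ± 0.14. AADAT, also a gene of lysine breakdown, was higher there at 0.61 ± 0.12. GCDH, of the same pathway and named after its values were seen, measured 9.12 and 9.01 there against 8.60 and 8.50 in untreated A2780. The listed genes of lysine breakdown thus went both ways.

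Around ALDH3A2, 7 of 8 listed genes of lipid pathways linked to fatty aldehydes were measured. In A2780CP20 4 fell and 1 rose against untreated A2780, where 12% of all genes fell and 6.37% rose, with a median change of -0.30 beside 0.03 over all genes. HACL1, which encodes the lyase of phytanic acid breakdown, fell by 0.93 ± 0.10 on the log2 scale (limma adjusted p = 0.00158), FAR1, a fatty acyl-CoA reductase gene, by 0.56 ± 0.12 and PHYH, the phytanoyl-CoA hydroxylase gene, by 0.37 ± 0.09. The FAR1 call was lost without untreated A2780 replicate 1 (limma adjusted p = 0.0861) or replicate 2 (0.0623) and with only the groups compared (0.0663). The PHYH call was lost in the same 3 settings (limma adjusted p = 0.0826, 0.141 and 0.110). SPHK1, which encodes a sphingosine kinase, measured 9.08 and 9.16 in A2780CP20 against 8.23 and 8.25 in untreated A2780 (0.88 ± 0.10, limma adjusted p = 0.00218).

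SPHK1 was also the single gene of all these lists called at 48 h, at 9.15 and 9.19 against 8.23 and 8.25 in untreated A2780 (0.93 ± 0.10, limma adjusted p = 0.0132). That call was kept in 12 of 16 alternatives and was lost on leaving out any 1 array of the groups compared (limma adjusted p between 0.156 and 0.205). Of the 7 genes 3 rose and none fell on the arrays labelled 24 h, namely AGPS (0.57 ± 0.09), SPHK1 (0.52 ± 0.10) and SGPL1 (0.37 ± 0.09), the last of which encodes the lyase that releases a fatty aldehyde from sphingosine phosphate, beside 30.1% of all genes called. The SPHK1 call there was lost without 24 h replicate 2 (limma adjusted p = 0.0533), and the SGPL1 call without either array labelled 24 h (0.0601 and 0.0852) or untreated A2780 replicate 2 (0.0713).

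Of 7 markers often used beside ALDH1A1 for stem-like cells, 5 were measured. On the arrays labelled 24 h against untreated A2780 none of PROM1, CD44, KIT, CD24 and SOX2 was called by limma. Over all genes 14.9% were called higher and 15.3% lower there, so the lack of a call among 5 genes says little. The smallest p belonged to CD24 (-0.34 ± 0.19, limma adjusted p = 0.23) and SOX2 (-0.12 ± 0.09, limma adjusted p = 0.367). Group means of PROM1, CD44, KIT and CD24 lay at or below 5.08 in all 4 groups, close to or under the lower quartile of the arrays, where signal over background is not known.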

How the data were processed

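The deposited values, 1 column for each of 8 arrays over 33297 probe sets, were read as log2 intensities from their range, no log base being stated in labels or file. Per the submitters' processing notes the authors used Partek, with no version and no role; how background, normalization and probe set summary were handled is not stated there. Values were deposited with 2 decimals. Groups came from the sample titles.

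Of the probe sets, 19460 had 1 gene symbol, 1754 several and 12083 none here. The probe set with the highest mean stood for a gene, which gave 18417 genes, 18389 of them matched to RefSeq. In limma 3.58.1 (R 4.3.3) the 4 groups were fitted together over all 8 arrays, with empirical Bayes moderation (4 residual and 4.48 prior degrees of freedom), two-sided tests, Benjamini-Hochberg adjustment over all genes and a call at adjusted p under 0.05. The fit was also run on simulated data with independent normal noise and few changed genes. That setting differs from these data, so the run does not bear on the calls reported. Array number limits the precision.

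The 10 genes and the related lists were chosen with earlier results of these data known. All aldehyde dehydrogenase genes are named. From each related list, up to 4 called genes with the largest change, or 2 with the smallest p, were taken per comparison. Not all of them appear in the text, and some genes outside that rule are named too. Alternatives were quantile normalization, median centring, dropping the 25% of genes with the lowest means, averaging probe sets within genes, each array left out in turn, a replicate block, only the compared groups, an intensity trend in the prior and, where possible, no arrays labelled 24 h. Promoter sequences are from RefSeq, GRCh38.p14.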

Additional observations from a re-analysis of the deposited data

Results flagged for a closer look

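For 9 of the 19 aldehyde dehydrogenase genes measured the change at 48 h differed from the change at 24 h, both taken against untreated A2780, by the limma test of the difference itself (48 h minus 24 h, n = 2 arrays per group), where 31% of all genes were called. The difference was 3.06 ± 0.09 for ALDH2 (limma adjusted p = 7.12e-08), 0.87 ± 0.13 for ALDH6A1 (0.00108), 0.74 ± 0.09 for ALDH7A1 (0.000284) and 0.59 ± 0.11 for ALDH4A1 (0.0036). It was -3.01 ± 0.14 for ALDH1A1 (limma adjusted p = 7.93e-07), -0.80 ± 0.09 for ALDH1B1 (0.000213), -0.59 ± 0.09 for ALDH18A1 (0.00151), -0.48 ± 0.12 for ALDH9A1 (0.0144) and -0.42 ± 0.09 for ALDH3A2 (0.0097). With the mean of its probe sets ALDH6A1 differed by 0.67 (limma adjusted p = 0.0007). What the arrays labelled 24 h hold was not tested, and every value here rests on them. The calls of ALDH9A1 and ALDH3A2 were lost in 2 and 3 of 15 alternatives, and those of the other 7 were kept in all 15. No group held enough arrays for a test of single arrays that stand apart.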

How the results depend on the processing

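On the arrays labelled 24 h, the calls of ALDH1A1, ALDH1B1, ALDH2, ALDH7A1 and ALDH18A1 against untreated A2780 kept their direction and passed in all 15 alternatives. The count of called genes among the 10 was 5 to 6 on leaving out single arrays, against 6 as reported, the same range as for 48 h versus 24 h, and was 5 to 7 against A2780CP20. For A2780CP20 versus untreated A2780 the count of 2 was 0 with only the groups compared, 1 without both arrays labelled 24 h and 0 to 3 on leaving out single arrays. It was 0 without either untreated A2780 array and 1 without A2780CP20 replicate 1 or any single array of the 24 h or 48 h groups. At 48 h versus untreated A2780 it stayed at 0.

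The count over all 18417 genes for A2780CP20 versus A2780, 3388, was 1022 with only the groups compared and 974 to 5543 without single arrays, moving most without an untreated A2780 array (1206 and 974) or A2780CP20 replicate 2 (5543). For 24 h versus untreated A2780 it was 5551 and 3621 to 6895, lowest without 24 h replicate 1. At 48 h versus untreated A2780 the 33 calls became 68 with an intensity trend in the prior and 4 to 57 without single arrays, with 4, 5, 4 and 6 without an array of the compared groups and 57 without either A2780CP20 array. For 48 h versus 24 h it was 5702 and 3715 to 7154, lowest without 48 h replicate 2, and 3768 without 24 h replicate 1. Against A2780CP20 it was 6206 and 3995 to 7088, lowest without 24 h replicate 2, and 4012 without replicate 1. Only ALDH1L2 in A2780CP20 turned its sign past the threshold, at -0.33 without A2780CP20 replicate 2 (limma adjusted p = 0.0359), against 0.07 as reported and 0.46 without replicate 1. The cause of these shifts was not tested beyond the smaller number of arrays in each such fit.

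Replicate numbers in the titles are shared between groups, but nothing says that they mark a shared culture or day. Differences between replicates correlated across genes at 0.002 to 0.181 between groups. With the replicate block the counts among the 10 genes were 2, 6, 0, 6 and 6, as without it, and over all genes 3555, 5642, 35, 5885 and 6414. With 2 arrays a group and unknown background, differences in the dimmest genes cannot be resolved.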
